A study of Mus musculus with 4 samples.

Results

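Thyroid hormone drives much of the maturation of the cerebellum in the second postnatal week. The genes described here are 6 that receive, supply or answer to this hormone in brain: the receptors Thra and Thrb, the response genes Klf9 and Hr, the deiodinase Dio2 and the transporter Slc16a10. They were chosen by name and function, not by any measured value, though earlier results of these data were known. All 6 were among the 55341 genes counted in each library and among the 16617 genes with enough counts to be tested. Expression was measured by RNA-seq of cerebellar tissue from mice at postnatal day 14 (P14). The Kdm6b-cKO group (n = 2) carried Atoh1-Cre with both Kdm6b alleles floxed (Kdm6b fl/fl). The WT group (n = 2) consisted of littermates that were Kdm6b fl/fl without Cre, so both groups share the floxed alleles. KDM6B erases methylation of lysine 27 on histone H3, a mark of silenced genes, and the study asked how its loss affects the maturation of cerebellar granule neurons.

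In brain, the prohormone T4 and the active hormone T3 enter cells through membrane transporters, and type 2 deiodinase, the product of Dio2, turns T4 into T3, mainly in glial cells. T3 then binds nuclear receptors that sit on DNA as partners of retinoid X receptors. Without hormone these receptors hold corepressors and keep their target genes low, and with hormone they exchange them for coactivators. Klf9 and Hr are direct targets that rise with T3 in developing rodent brain, and the product of Hr is itself a corepressor that binds thyroid hormone receptors.

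Several properties of the samples limit what the values can show. Atoh1-Cre acts in granule neuron precursors, while the RNA came from whole cerebellar tissue, so RNA of cells without Cre is part of every value, and fewer cells of a type cannot be told apart from less RNA per cell. The libraries held 8811849 to 9892363 counts in genes. Kdm6b itself was at 127 and 119 CPM (counts scaled to the library total) in the Kdm6b-cKO libraries, against 154 and 154 CPM in the WT libraries, lower by test (log2 fold change −0.33 ± 0.076 SE; adjusted p from edgeR 0.0162). Its counts cover the whole gene, including exons outside the floxed part that codes for the catalytic domain. WT 1 had the expression pattern of a male (Xist at 0.431 CPM, 4 Y-linked genes summing to 233 CPM), and the other 3 libraries had that of females (Xist at 1359 to 1599 CPM), so sex ran partly with genotype. Kdm6b-cKO 1 stood apart in the sum of 7 markers of choroid plexus, an epithelium next to the cerebellum. The sum was 691 CPM there, of which Ttr was 609 CPM, and 41.9 CPM in Kdm6b-cKO 2, against 34.4 and 37.1 CPM in WT. Otx2 did not stand apart, at 27.9 CPM in Kdm6b-cKO 1 and 27.2 CPM in WT 2. Of these markers, 4 had enough counts to be tested, 2 (Ttr and Kl) rose, and Kcne2 was at 0 in Kdm6b-cKO 2 and WT 2. Kl was at 16.8 CPM in Kdm6b-cKO 1, but at 1.68 CPM in Kdm6b-cKO 2 and 1.51 CPM in WT 2. Mature granule neuron markers summed to 4206 and 3674 CPM in Kdm6b-cKO and to 5119 and 5261 CPM in WT, and newborn granule neuron markers to 2644 and 3122 CPM in Kdm6b-cKO and to 2130 and 2256 CPM in WT. Of the 8 markers in each list, 7 mature ones fell and 6 newborn ones rose, and none was at 0 in any library.

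All 6 genes were detected in every library, but their levels differed widely. Per kilobase of exon, which allows different genes to be compared, Thra averaged 94.9 ± 1.73 CPM in Kdm6b-cKO and 88.3 ± 3.33 CPM in WT (SD, n = 2 each), more than 98.0% of the tested genes. Klf9 came next at 70.8 ± 3.69 CPM per kilobase in Kdm6b-cKO and 68.3 ± 5.49 in WT, followed by Hr at 21.5 ± 0.965 in Kdm6b-cKO and 26.2 ± 0.0641 in WT. Below them stood Dio2 at 10.5 ± 0.0979 CPM per kilobase in Kdm6b-cKO and 11.4 ± 0.254 in WT, and Thrb at 2.08 ± 0.176 in Kdm6b-cKO and 1.55 ± 0.205 in WT. Slc16a10 was the lowest, at 0.625 ± 0.128 CPM per kilobase in Kdm6b-cKO and 0.455 ± 0.0833 in WT. The order was the same in each of the 4 libraries, and no neighbours in it overlapped. Lengths are of all exons of a gene joined, so a gene whose cells use a short form is understated.

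**Figure D1:**
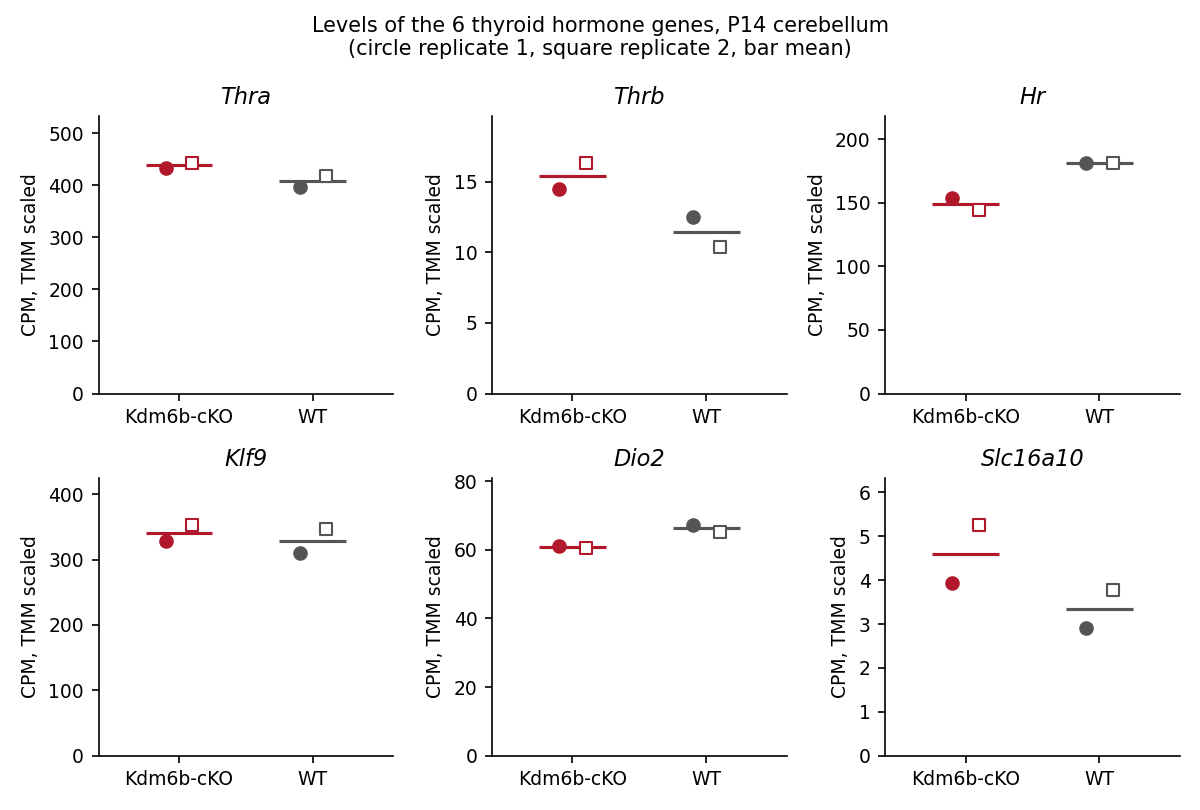
CPM scaled by TMM (vertical axes, linear and starting at 0) of the 6 genes in each Kdm6b-cKO and WT library of P14 cerebellum, with replicate 1 as a circle, replicate 2 as a square and the group mean as a bar. For Hr both Kdm6b-cKO libraries (154 and 144 CPM) lie below both WT libraries (181 and 182 CPM), while the groups overlap for Klf9.

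Between genotypes, Hr was the gene of this group that changed by the test across all genes. It was 0.821 times as high in Kdm6b-cKO as in WT, and the other 5 did not pass. For all tested genes the share called was 4.04%, with 310 higher and 361 lower in Kdm6b-cKO, or 1.87% called higher and 2.17% called lower. An unadjusted p under 0.05 was reached by 2 of the 6 genes, Hr and Thrb, against 16.3% of all tested genes. The libraries of the groups did not overlap for 5 of the 6 genes, 3 of them higher and 2 lower in Kdm6b-cKO, against 46.4% of all tested genes, 23.2% in each direction. The median log2 fold change of the 6 genes was 0.08, beside 0.0036 for all tested genes.

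Thra encodes the thyroid hormone receptor that predominates in most of the developing brain. The gene (ENSMUSG00000058756.13) lies on the plus strand at chr11:98740638-98769006 of GRCm38. It makes a hormone-binding receptor, alpha1, and by another splice a product, alpha2, that does not bind T3. The coding sequences of both are shown where they part, because the deposited counts add both products together and cannot tell a change in their balance. They share their first 1110 coding bases, and the last 24 shared bases are in lower case with the bases particular to each product in capitals (GENCODE M21 transcripts, GRCm38, plus strand). The alpha1 stretch, from a coding sequence of 410 codons, is at chr11:98764382-98764429, and the alpha2 stretch, from 492 codons, spans an intron within chr11:98764382-98768180.
Thra alpha1: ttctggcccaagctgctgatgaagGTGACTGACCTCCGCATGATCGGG
Thra alpha2: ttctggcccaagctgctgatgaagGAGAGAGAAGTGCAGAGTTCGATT

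Thra was at 432 and 444 CPM in the Kdm6b-cKO libraries, against 397 and 418 CPM in the WT libraries. Both Kdm6b-cKO libraries were thus above both WT libraries, by a margin smaller than the gap between the WT libraries. The log2 fold change was 0.10 (95% interval −0.04 to 0.25, edgeR adjusted p = 0.4996), and without WT 1 it was 0.07. Exons of Thra share 263 bases (5.7% of its exon length) with Nr1d1, a clock gene on the other strand that encodes the repressor REV-ERB alpha. All of these bases lie in exon sequence that alpha2 has and alpha1 has not. The strand setting of the counting is not given in the sources used here, so reads from the shared bases cannot be assigned to either gene. Nr1d1 was at 190 and 186 CPM in Kdm6b-cKO and at 207 and 203 CPM in WT.

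Thrb, the gene of the beta receptors (ENSMUSG00000021779.17, plus strand, chr14:17660261-18038090), had the second largest fold difference of the 6 genes but did not pass the test. Its level was 14.5 and 16.4 CPM in the Kdm6b-cKO libraries, against 12.5 and 10.4 CPM in the WT libraries. Both Kdm6b-cKO libraries were above both WT libraries, on counts of 144 and 146 in Kdm6b-cKO against 116 and 96 in WT. The ratio of means was 1.35 and the log2 fold change 0.43 (SE 0.18, 95% interval 0.057 to 0.80, unadjusted p = 0.0260), with an edgeR adjusted p of 0.222. Leaving out 1 library moved it both ways: it was 0.57 without WT 1 (adjusted p = 0.260) and 0.52 without Kdm6b-cKO 1 (adjusted p = 0.382), but 0.30 without WT 2 (adjusted p = 0.680) and 0.34 without Kdm6b-cKO 2 (adjusted p = 0.551).

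Because both receptors belong to one family, the longest run of identical bases between their transcripts was looked up. A read wholly inside such a run could not be assigned to either gene. The run was 26 bases long, shorter than the read length in the study's methods. It lies in the coding sequence, shown in capitals with flanking bases at chr11:98763550-98763599 for Thra and chr14:18030164-18030213 for Thrb (GENCODE M21 transcripts, GRCm38, plus strand).
Thra: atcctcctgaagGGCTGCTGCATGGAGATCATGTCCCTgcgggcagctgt
Thrb: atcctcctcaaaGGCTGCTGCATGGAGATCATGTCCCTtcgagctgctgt

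Per kilobase of exon, Thra was 47.8 and 43.5 times as high as Thrb in the Kdm6b-cKO libraries and 50.9 and 64.8 times as high in the WT libraries. Thrb made up 2.05% and 2.25% of the summed receptor level in Kdm6b-cKO, against 1.93% and 1.52% in WT. The shares did not overlap between genotypes, though Kdm6b-cKO 1 and WT 1 were close, and the balance itself was not tested. The Thra level includes alpha2, which does not bind T3. Its exon length includes the bases shared with Nr1d1, and whether reads from them were counted for Thra is not known. The shares are thus not those of hormone-binding receptors alone.

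Hr encodes Hairless, a nuclear corepressor with a Jumonji-C domain that binds thyroid hormone receptors and that T3 induces in neonatal rodent cerebellum. The gene (ENSMUSG00000022096.14) is on the plus strand at chr14:70552212-70573548. Its level was 154 and 144 CPM in the Kdm6b-cKO libraries, against 181 and 182 CPM in the WT libraries, from 1524 and 1287 counts in Kdm6b-cKO and 1678 and 1682 in WT. Both Kdm6b-cKO libraries were below both WT libraries, and the gap between the groups was larger than that between the replicates of either. The mean fell to 149 ± 6.68 CPM in Kdm6b-cKO, against 181 ± 0.443 CPM in WT (SD, n = 2 each). The log2 fold change was −0.28 with a 95% interval of −0.44 to −0.13 (SE 0.073), and the edgeR adjusted p was 0.0323.

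The direction of the Hr difference was the same in all 12 alternative analyses, but its call was not. Leaving out any of the 4 libraries ended it, with log2 fold changes from −0.33 to −0.24. Without either Kdm6b-cKO library the call of every gene ended, so those fits cannot show how firm the call of Hr was. Without WT 1, which leaves libraries of the same sex pattern, the log2 fold change of Hr was −0.29. DESeq2 gave an adjusted p of 0.0766, and edgeR without a filter on low counts gave 0.109. The mature granule neuron markers given above were lower in the same libraries as Hr, and their part in its difference was not tested.

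Klf9 encodes a Krüppel-like transcription factor that T3 induces in developing neurons. The gene (ENSMUSG00000033863.2) is on the plus strand at chr19:23141226-23168134. In contrast to Hr, its level was 328 and 353 CPM in the Kdm6b-cKO libraries, against 310 and 347 CPM in the WT libraries. The groups overlapped, since WT 2 was above Kdm6b-cKO 1. The log2 fold change was 0.05 (95% interval −0.10 to 0.21, edgeR adjusted p = 0.799), and it changed sign to −0.03 without WT 1. As modelled from 2 libraries per group, this interval did not reach down to the estimate for Hr (−0.28), which does not exclude such a difference. The ratio of Klf9 to Hr, in CPM per kilobase of exon, was 3.07 and 3.52 in the Kdm6b-cKO libraries. It was 2.46 and 2.75 in the WT libraries, and the groups did not overlap. Whether Hr and Klf9 differed in their response was not tested.

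Dio2, the enzyme that makes T3 inside the brain, is expressed mainly in astrocytes there. The gene (ENSMUSG00000007682.6) lies on the minus strand at chr12:90724552-90738438. It encodes a selenoprotein, in which the codon TGA, elsewhere a stop, is read as selenocysteine. The transcript is annotated with such codons at positions 130 and 263, the first of them in the active site. Both are shown as they feature in the sequence behind the counts, with the TGA in capitals (GENCODE M21 transcript, GRCm38, minus strand, chr12:90729805-90729843 and chr12:90729412-90729444).
Dio2 codon 130: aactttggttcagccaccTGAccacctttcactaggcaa
Dio2 codon 263: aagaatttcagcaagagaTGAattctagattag

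Dio2 was at 61.2 and 60.4 CPM in the Kdm6b-cKO libraries, against 67.3 and 65.2 CPM in the WT libraries. Both Kdm6b-cKO libraries were below both WT libraries, with little spread within either group. The log2 fold change of −0.12 (95% interval −0.31 to 0.061) did not pass the test (edgeR adjusted p = 0.538), and was −0.10 without WT 1. Markers of astrocytes and Bergmann glia summed to 3819 and 3696 CPM in Kdm6b-cKO and to 4338 and 4270 CPM in WT. Of the 8 markers, 4 (Slc1a2, Slc1a3, Gdf10 and S100b) fell and 4 did not pass, and none was at 0. Among those that did not pass, Gja1 had a log2 fold change of −0.18. Aldh1l1 (0.28, edgeR adjusted p = 0.0608), Gfap (0.09) and Aqp4 (0.04) had positive estimates. The part of these cells in the Dio2 values was not tested. An uncharacterised gene on the other strand, Gm26512, shares 1.72% of the exon length of Dio2.

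Slc16a10 encodes MCT10, a transporter of T3 and aromatic amino acids. The gene (ENSMUSG00000019838.11) is on the minus strand at chr10:40033532-40142258. Its level was 3.93 and 5.26 CPM in the Kdm6b-cKO libraries, against 2.91 and 3.78 CPM in the WT libraries. Kdm6b-cKO 2 was the highest and WT 1 the lowest, and Kdm6b-cKO 1 was only just above WT 2. The values rest on 39 and 47 counts in Kdm6b-cKO and on 27 and 35 in WT. The log2 fold change was 0.45 (SE 0.33, 95% interval −0.23 to 1.13, edgeR adjusted p = 0.541), and it was 0.28 without WT 1 and 0.65 without Kdm6b-cKO 1. At this depth the interval holds both a fall and a rise, and no change was detectable.

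**Figure D2:**
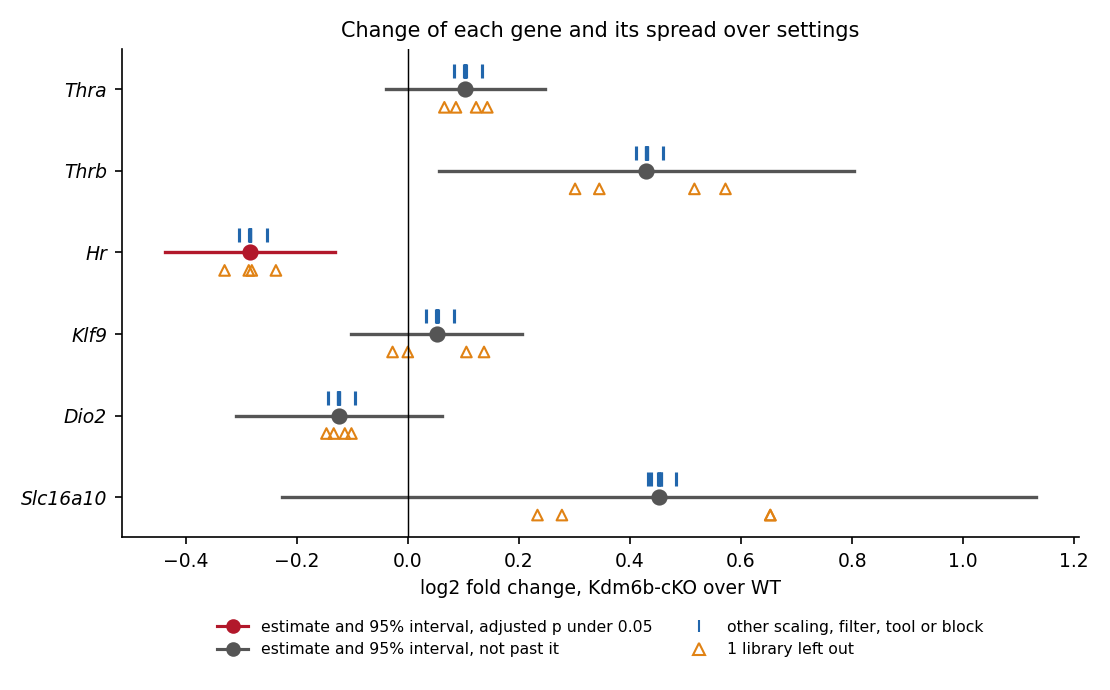
Log2 fold change of Kdm6b-cKO over WT (horizontal axis) for the 6 genes, with the estimate as a dot and its 95% interval as a line; blue ticks mark other scalings, filters, tools or the replicate block, and triangles mark fits with 1 library left out. The Hr interval (−0.44 to −0.13) and the Thrb interval (0.057 to 0.80) are the ones that do not cross 0, and only Hr, in red, had an adjusted p under 0.05.

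To place the 6 genes in their pathway, 73 other genes were listed in 11 groups by role, with earlier results of these data known. Of them, 67 had enough counts to be tested. Of these 67, 4 were lower in Kdm6b-cKO, none was higher and 63 did not pass the edgeR test, beside 2.17% called lower and 1.87% called higher among all tested genes. By unadjusted p under 0.05, 18 of the 67 passed, beside 16.3% of all tested genes. The groups did not overlap for 41, of which 14 were higher and 27 lower in Kdm6b-cKO, beside 46.4% of all tested genes and 23.2% in each direction. All 4 genes that fell were among those known to respond to T3 in developing rodent brain.

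The machinery that works with the receptors showed no called gene. Of the retinoid X receptors, the DNA-binding partners of Thra and Thrb, 2 of 3 were tested. Rxra was at 16.3 and 19.0 CPM in Kdm6b-cKO and at 19.8 and 21.4 CPM in WT, a log2 fold change of −0.22 (edgeR adjusted p = 0.509). The 6 genes of the corepressor complex had a median log2 fold change of 0.08. The 7 coactivators had a median of −0.07. Med1, the Mediator subunit that hormone-bound receptors contact, was at 82.9 and 77.1 CPM in Kdm6b-cKO and at 71.8 and 66.4 CPM in WT, a log2 fold change of 0.21 (adjusted p = 0.212). For Med1 the groups did not overlap.

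None of the tested genes that supply the hormone passed either. The 5 other transporters had a median log2 fold change of 0.17. The other deiodinases, Dio1 and Dio3, had too few counts to be tested. Dio1 had 0 counts in every library, which allows up to 3 counts in each, or 0.302 to 0.336 CPM. Dio3, the deiodinase that inactivates T3, had 0 and 1 counts in Kdm6b-cKO and 3 and 1 in WT. The 5 genes of DIO2 protein synthesis and turnover had a median of 0.03. Usp33, which encodes a deubiquitinase that stabilises DIO2, was at 154 and 151 CPM in Kdm6b-cKO and at 166 and 166 CPM in WT, a log2 fold change of −0.12 (adjusted p = 0.450).

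Relatives of the 6 genes gave a mixed picture with none called. Of the KLF relatives of Klf9, 4 of 5 were tested, with a median log2 fold change of −0.13. Klf13, a close relative of Klf9, was at 305 and 240 CPM in Kdm6b-cKO and at 287 and 356 CPM in WT, so the groups overlapped (log2 fold change −0.24, edgeR adjusted p = 0.222). Its estimate depended on the libraries kept: it was −0.38 without WT 1 and −0.42 without Kdm6b-cKO 1. Without WT 2 it was −0.07, and without Kdm6b-cKO 2 it was −0.07 as well. The 3 KDM3 demethylases related to Hr had a median of 0.05, led by Kdm3a at 0.15 (adjusted p = 0.502). Of the other NR1 nuclear receptors, 8 of 9 were tested, with a median of −0.14. Rara, a retinoic acid receptor, was at 18.1 and 17.8 CPM in Kdm6b-cKO and at 24.4 and 25.3 CPM in WT, a log2 fold change of −0.46 (adjusted p = 0.0664). The 9 other SLC16 transporters had a median of 0.01, and Slc16a9 had the smallest p, at −0.59 (adjusted p = 0.215).

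**Figure D3:**
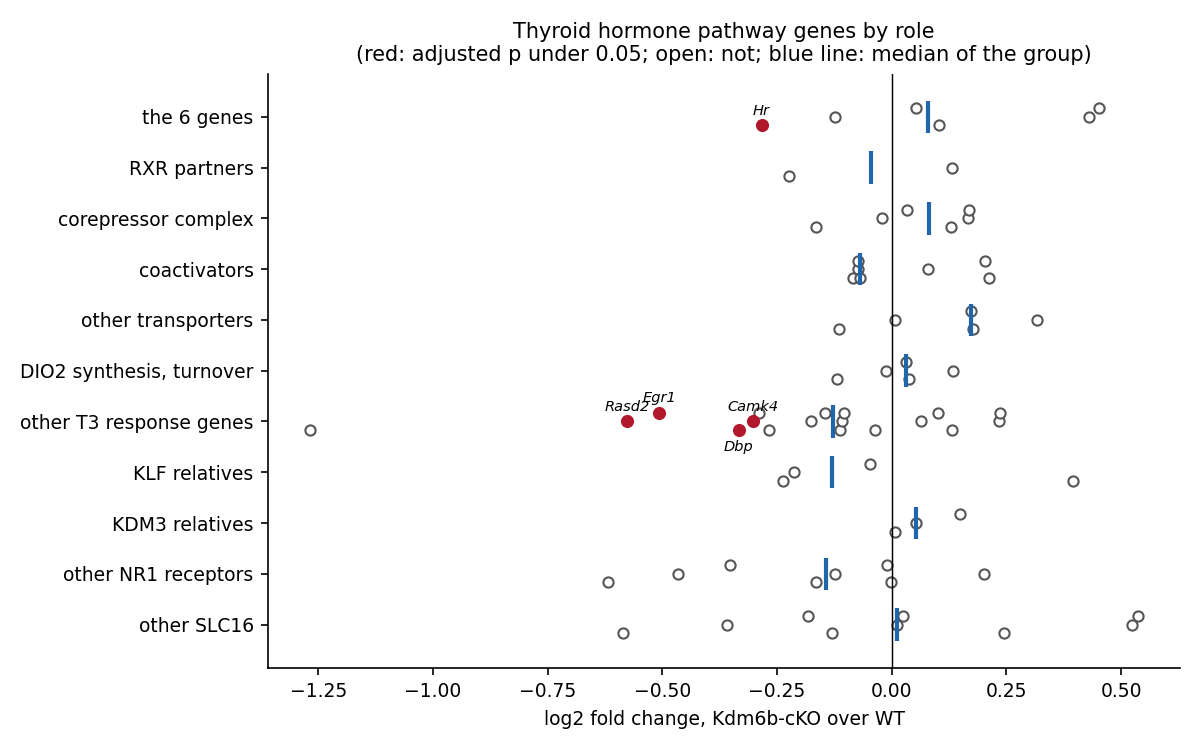
Log2 fold change of Kdm6b-cKO over WT (horizontal axis) of the 6 genes and 67 other tested pathway genes by role, where each circle is a gene, red fill marks an adjusted p under 0.05 and the blue line is the median of the group. The red genes are Hr in the top group and Camk4, Rasd2, Egr1 and Dbp among the 18 other T3 response genes, all to the left of 0.

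Hr and Klf9 are 2 of many genes known to respond to T3 in developing rodent brain. A further 18 were listed, with earlier results of these data known. They had a median log2 fold change of −0.13, beside 0.0036 for all tested genes. Of the 18, 4 fell, none rose and 14 did not pass, beside 2.17% of all tested genes called lower, and 13 estimates were negative and 5 positive. The groups did not overlap for 14 of the 18, beside 46.4% of all tested genes. Bdnf had the largest difference of the list but did not pass (log2 fold change −1.27, edgeR adjusted p = 0.0552). It was at 2.22 and 2.02 CPM in Kdm6b-cKO and at 3.67 and 6.59 CPM in WT.

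Camk4, a calcium-dependent kinase abundant in granule neurons, was at 222 and 211 CPM in the Kdm6b-cKO libraries, against 263 and 271 CPM in the WT libraries (log2 fold change −0.30, SE 0.068, edgeR adjusted p = 0.0126). Rasd2, which encodes the small GTPase Rhes, was at 19.2 and 17.3 CPM in Kdm6b-cKO, against 25.02 and 29.4 CPM in WT (−0.58, SE 0.14, adjusted p = 0.0247). Neither gene had overlapping groups. Egr1, an immediate-early transcription factor, was at 21.7 and 19.8 CPM in Kdm6b-cKO, against 30.6 and 28.4 CPM in WT (−0.51, SE 0.13, adjusted p = 0.0345). Dbp, a transcription factor that also follows the circadian clock, was at 61.4 and 70.6 CPM in Kdm6b-cKO, against 79.9 and 86.2 CPM in WT (−0.33, SE 0.090, adjusted p = 0.0404). For these as well, both Kdm6b-cKO libraries were below both WT libraries.

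Without WT 1 the differences had about the same size, with log2 fold changes of −0.33 for Camk4 (adjusted p = 0.103), −0.45 for Egr1 (adjusted p = 0.245), −0.39 for Dbp (adjusted p = 0.0584) and −0.69 for Rasd2 (adjusted p = 0.0131), of which only Rasd2 passed. All 4 lost their call when any of the other 3 libraries was left out, as every gene did without either Kdm6b-cKO library. They also lost it without the filter on low counts. With DESeq2, Rasd2 (adjusted p = 0.109), Egr1 (adjusted p = 0.160) and Dbp (adjusted p = 0.173) lost it. Other members of this list are known from single cell types. Mbp, the myelin basic protein of oligodendrocytes, was at 3990 and 4173 CPM in Kdm6b-cKO and at 4519 and 4280 CPM in WT (adjusted p = 0.379). Reln, the secreted protein that granule neurons release to guide migration, was at 735 and 689 CPM in Kdm6b-cKO and at 604 and 606 CPM in WT (log2 fold change 0.23, adjusted p = 0.0600). Mbp and Reln were chosen after their values were seen. Oligodendrocyte markers summed to 8441 and 8512 CPM in Kdm6b-cKO and to 9750 and 9302 CPM in WT, with 2 of 8 lower and none at 0. Purkinje cell markers summed to 4969 and 4649 CPM in Kdm6b-cKO and to 5321 and 5242 CPM in WT, with 1 of 6 higher, 1 lower and none at 0. The mature granule neuron markers, of which 7 of 8 fell, were lower in the same libraries as well. Mbp is also one of the oligodendrocyte markers, and Itpr1, Calb1 and Pcp2 stand both among the response genes and among the Purkinje cell markers. The part of these cell types in the response genes was not tested.

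**Figure D4:**
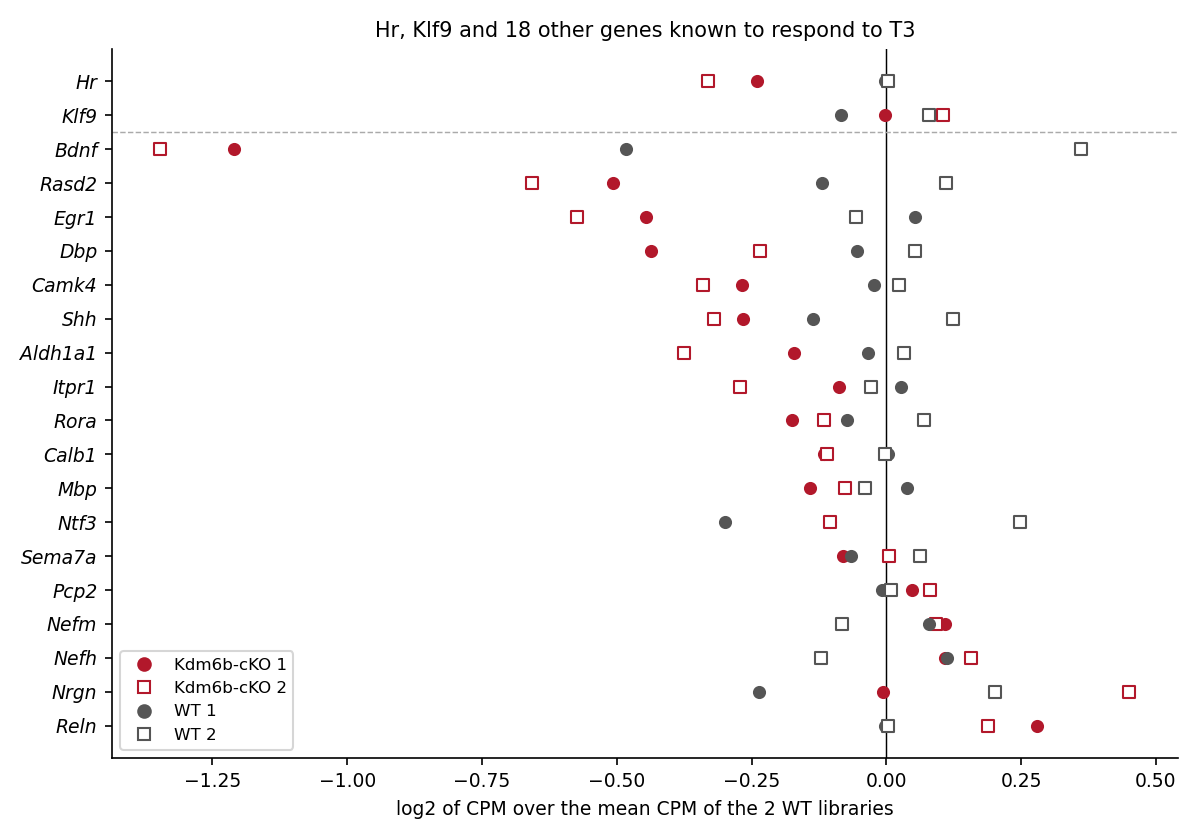
Log2 of CPM over the mean CPM of the 2 WT libraries (horizontal axis) for Hr, Klf9 and 18 other genes known to respond to T3, with Kdm6b-cKO libraries in red, WT libraries in grey, circles for replicate 1 and squares for replicate 2. The called genes Hr, Rasd2, Egr1, Dbp and Camk4 have both red points left of both grey points, as do some genes that did not pass, such as Bdnf. The Klf9 points overlap.

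Among 11056 genes with a mean level of at least 10 CPM, those whose profile over the 4 libraries was most like that of Hr were B230217C12Rik, Snx21 and Ank1, by Euclidean distance between log2 CPM values centred on each gene's mean (0.0040, 0.0132 and 0.0154). Ank1, which encodes the cytoskeletal adaptor ankyrin-1, was at 400 and 373 CPM in Kdm6b-cKO and at 472 and 477 CPM in WT. This is a log2 fold change of −0.29 ± 0.069 (SE), with an edgeR adjusted p of 0.0176. Snx21, a sorting nexin gene, was at 46.7 and 43.4 CPM in Kdm6b-cKO and at 55.0 and 55.3 CPM in WT (adjusted p = 0.114). B230217C12Rik was at 28.7 and 27.0 CPM in Kdm6b-cKO and at 33.98 and 34.1 CPM in WT (adjusted p = 0.217).

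Promoter windows from RefSeq (GRCm38.p6, 250 bases before to 50 after a start site) matched 4 of the 6 genes, Thrb, Klf9, Dio2 and Slc16a10. Each was searched on both strands for AGGTCA, the core motif that thyroid hormone receptors bind, for its direct repeat with a spacer of 4 bases, and for the cyclic AMP response element TGACGTCA. The upstream window of Thrb held 1 AGGTCA at −184 from the start site, a motif found in 16.3% of 32817 promoter windows. The Dio2 window held 1 TGACGTCA at −95, a motif found in 1.79% of windows. The direct repeat was in none of the windows of these genes and in 0.0152% of all windows, and Klf9 and Slc16a10 held none of the motifs. These matches are letters in the reference sequence, and binding was not measured here.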

How the data were processed

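Cerebellar RNA from 2 Kdm6b-cKO and 2 WT mice at P14 was poly(A) enriched and sequenced as paired-end reads, with individual mice as replicates per the study's methods. The authors used Trimmomatic 0.38 for trimming, STAR 2.7.2b for alignment to GRCm38 (mm10) and HTSeq for counting over exons, and the deposited values are raw counts per gene symbol. Entries that name no gene (59.5% to 61.0% of all entries per library, including ambiguous reads at 0.805% to 0.917%) entered neither library sizes nor tests. Groups and replicate numbers came from sample titles, although each replicate 2 is described with the number of replicate 1. The spread between replicates exceeded sampling noise, with a chi-square over degrees of freedom of 3.82 in Kdm6b-cKO and 3.51 in WT.

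Genes were filtered with filterByExpr, scaled by TMM (factors 0.986 to 1.02) and tested with the two-sided quasi-likelihood test of edgeR 4.0.16 in R 4.3.3, with Benjamini-Hochberg adjustment over all 16617 genes and a threshold of 0.05; the script was tested on simulated data. CPM are TMM scaled. Coordinates and exon lengths came from GENCODE M21 (GRCm38), which held all 55341 symbols. Alternatives covered scaling, filters, DESeq2 1.42.0, limma-voom (limma 3.58.1), a replicate block and the omission of each library in turn, in which the single remaining library was taken to vary as the other group did. Named genes were the 6 members, Kdm6b, up to 3 called genes of each list by smallest p (or the gene with the smallest p where none was called), and the 3 genes most like a called member. Not every gene picked this way is reported here. The members and lists were chosen with earlier results of these data known. Intervals cover counting and replicate error as modelled, and floors cover counting error only.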

Additional observations from a re-analysis of the deposited data

How the results depend on the processing

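The 671 genes called across all tested genes became 177 without a filter on low counts, 320 with DESeq2 and 1130 with the replicate number as a block (edgeR, replicate block), and 0 to 507 when 1 library was left out (0 without either Kdm6b-cKO library, where 2315 and 1718 genes had an unadjusted p under 0.05, and 368 without WT 1). The 1 call among the 6 genes, Hr, became 0 without the filter, with DESeq2 and with any 1 library left out (0 to 0), where 1 or 2 of the 6 genes had an unadjusted p under 0.05, and stayed 1 with the replicate block. The 4 called pathway genes became 0 without the filter, 2 with DESeq2, 10 with the replicate block and 0 to 3 with 1 library left out. Over genes, the gap between replicates 1 and 2 in Kdm6b-cKO hardly correlated with that in WT (correlation 0.043). Sex pattern and choroid plexus RNA also differed between replicates, so this cannot show whether same-numbered libraries shared a litter or batch. Klf9 ranged from −0.027 to 0.14 on the log2 scale when 1 library was left out, with the sign reversed without WT 1 (−0.03), and no other named gene changed direction under any of the 12 alternatives. By library size alone, the mean of Hr in WT was 178.9 CPM in place of 181 CPM, and the share of called genes that were lower in Kdm6b-cKO was 40.2% in place of 53.8% (63.0% with upper-quartile scaling). Without the filter on low counts 28952 genes were tested. Depth limited Slc16a10 most among the 6 genes, with 27 to 47 counts per library and an interval of −0.23 to 1.13.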

Other observations

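Hr, Klf9 and Dbp also respond to signals other than T3, and 3 further lists of such signals were looked at. Of 7 genes known to respond to glucocorticoids, which also induce Klf9, 2 were lower in Kdm6b-cKO, none was higher and 5 did not pass. Among all tested genes, 2.17% were called lower. The 7 genes had a median log2 fold change of −0.21, with 6 estimates negative and 1 positive. Among those that did not pass, Errfi1 had a log2 fold change of −0.38, Sgk1 of −0.02 and Fkbp5 of 0.02. Per1, a clock gene with a glucocorticoid response, was at 75.5 and 62.4 CPM in Kdm6b-cKO and at 90.0 and 88.8 CPM in WT (log2 fold change −0.37, edgeR adjusted p = 0.0234; −0.36 without WT 1, adjusted p = 0.0896). Tsc22d3, which encodes GILZ, was at 84.9 and 86.3 CPM in Kdm6b-cKO and at 106 and 107 CPM in WT (−0.32, adjusted p = 0.0249; −0.33 without WT 1, adjusted p = 0.121). Of 13 circadian clock genes, 2 were lower (Per1 and Dbp), 11 did not pass, beside the same 2.17%, and 12 estimates were negative.

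Of 9 tested immediate-early genes, which neurons switch on with activity, 5 were lower in Kdm6b-cKO, among them Egr1 of the T3 response genes, and 4 did not pass, beside 2.17% of all tested genes called lower. Fos was at 4.13 and 7.28 CPM in Kdm6b-cKO and at 37.0 and 8.96 CPM in WT (log2 fold change −2.02, edgeR adjusted p = 0.00570), and without WT 1 it was −0.66 (adjusted p = 0.429). Nr4a1 was at 16.6 and 13.8 CPM in Kdm6b-cKO and at 37.9 and 20.8 CPM in WT (−0.94, adjusted p = 0.00870; −0.45 without WT 1, adjusted p = 0.350). Jun was at 48.8 and 49.1 CPM in Kdm6b-cKO and at 65.3 and 66.0 CPM in WT (−0.42, adjusted p = 0.0105; −0.43 without WT 1, adjusted p = 0.0547). Dusp1, also called lower, was at 20.6 and 26.4 CPM in Kdm6b-cKO and at 62.5 and 24.6 CPM in WT, so its groups overlapped. For Fos, Nr4a1 and Dusp1, WT 1 was well above WT 2, while Jun and Hr were nearly equal in the WT libraries. With DESeq2, Fos (adjusted p = 0.422) and Nr4a1 (adjusted p = 0.371) lost their call, and Jun kept it (adjusted p = 0.0499). Fos also lost it with limma-voom (adjusted p = 0.0633).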
